A study of Mus musculus with 22 samples.

Results

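The subject is a set of 8 genes for inhibitory signalling at the B-cell surface, followed in a murine leukemia line with and without the NF-κB inhibitor IκBε. The set holds 7 surface receptors, Cd5, Cd22, Cd72, Siglecg, Fcgr2b, Pirb and Lair1, and the phosphatase gene Ptpn6, whose product SHP-1 is recruited by such receptors. Members were taken as the transcripts that the GENCODE mouse annotation assigns to these 8 genes, analysed per transcript and summed per gene. The count table held 62 of their 107 annotated transcripts, and the 8 genes were among 17023 genes in all.

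RNA sequencing covered 22 samples of TCL1-355 TKO cells in 6 groups, which paired 2 genotypes with 3 compartments. The line comes from an Eμ-TCL1 mouse, a model in which the human TCL1 oncogene is driven in B cells and a leukemia resembling chronic lymphocytic leukemia (CLL) develops, and all groups, the controls included, share the engineered TKO background of this line. NFKBIE-ko cells were edited with Cas9 and a guide to exon 2 of the gene for IκBε, and NFKBIE-wt cells were mock controls. Each genotype was first grown in a single C57BL/6 donor mouse, and cells were recovered 10 days after intraperitoneal transplantation from the spleen (4 samples per genotype) and the peritoneal cavity (PC, 4 samples per genotype), while the in vitro samples (3 per genotype) came from spleens of 3 mice and spent 2 weeks in culture. Recovered samples were not purified, so host cells remained in them, the labels give the tissue as blood throughout, and the edited cells were a pool rather than a clone. Spleen and PC samples of a genotype came from the same recipient mice, but no source says which sample numbers share a mouse. Because each genotype passed through a single donor mouse before transplantation, an effect of that passage and an effect of the genotype cannot be told apart in the spleen and PC samples.

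Inhibitory receptors carry short tyrosine motifs in the cytoplasmic tail, the immunoreceptor tyrosine-based inhibition motifs (ITIMs). When the B-cell receptor (BCR) is engaged, the kinase Lyn phosphorylates them, and the phosphatases SHP-1 and SHIP-1 bind and dampen signals from the BCR. CD5 marks B-1 cells and CLL cells and is shared with T cells, and PIR-B, LAIR-1 and the inhibitory Fc receptor are shared with myeloid cells.

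Cd22 (chr7:30564827-30579767, minus strand) and Siglecg (chr7:43057628-43067782, plus strand) encode sialic-acid-binding lectins of B cells. Cd72 (chr4:43446431-43455129, minus strand) encodes a C-type lectin-like receptor that binds semaphorin 4D, and Cd5 (chr19:10694480-10716366, minus strand) a scavenger-receptor family protein. Fcgr2b (chr1:170786186-170804177, minus strand) encodes the low-affinity IgG receptor that inhibits. Pirb (chr7:3714408-3723416, minus strand) and Lair1 (chr7:3995928-4066269, minus strand) encode a receptor for class I MHC and a receptor for collagen. Ptpn6 (chr6:124697670-124715840, minus strand) encodes SHP-1 in the cytoplasm, and all these positions are on GRCm39. The protein-coding gene Tesk1 overlaps Cd72 on the other strand (mean level 32.3 CPM, counts scaled to library size by TMM), and noncoding RNA genes overlap Cd22, Fcgr2b and Ptpn6 there. Because counting is not stated to have used strand, reads of such partners cannot be told apart.

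The genes were chosen by name and not by sequence, so their coding sequences can be compared. In the GRCm39 coding sequence of 1 transcript per receptor, the last 150 codons were searched for the ITIM pattern (isoleucine, valine, leucine or serine, any residue, tyrosine, any pair of residues, then isoleucine, leucine or valine), and for Cd72, whose N-terminus is cytoplasmic, the first 50 codons. Cd22 held 4 matches, Siglecg and Pirb 3 each, Cd5, Cd72 and Lair1 2 each, and Fcgr2b 1, so all 7 receptors had at least 1. The following stretches are given because they match the motif by which such receptors recruit SHP-1 or SHIP-1, with the tyrosine codon in capitals.
Cd22, codons 781 to 786: gttagtTATgccatcttg
Cd22, codons 841 to 846: atccatTACtcagagctg
Cd22, codons 861 to 866: gtagacTATgtgaccctc
Siglecg, codons 588 to 593: ctggacTACatcaatgtg
Siglecg, codons 657 to 662: ctccacTATgctgctctc
Cd72, codons 5 to 10: atcacgTATgcagacctg
Cd72, codons 37 to 42: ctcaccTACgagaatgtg
Fcgr2b, codons 270 to 275: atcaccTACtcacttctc
Pirb, codons 792 to 797: gtgaccTATgcccagctg
Pirb, codons 822 to 827: agtgtaTATgctactctg
Lair1, codons 226 to 231: gtgacgTATatccagctg
Lair1, codons 255 to 260: agcacaTATgcagccatc
Cd5, codons 399 to 404: ctggtcTACaagaagctg
A pattern match is a description of letters and not evidence of phosphorylation. The 300-base promoters of the set in RefSeq (GRCm38.p6, 250 bases before and 50 after the start) were searched on both strands for the NF-κB consensus known as the κB site, which was present in 0 of 9 promoters of the 8 genes and in 8.46% of all 32851 promoters in that table. These letters are absent from those windows, from which nothing follows about binding.

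Total estimated counts per library ran from 24036763 to 26581304. Transcripts of Nfkbie, the edited gene, were at 72.7, 70.9, 76.9 and 124 CPM in the NFKBIE-wt spleen libraries and 120.3, 54.2, 109 and 112 in the NFKBIE-ko spleen libraries. Corresponding values were 67.3, 81.4, 76.6 and 91.2 against 64.9, 47.2, 55.9 and 47.5 in the PC and 117, 141 and 54.3 against 56.0, 59.9 and 48.2 in culture. Nfkbie was called lower in the NFKBIE-ko PC (log2 fold change -0.56, SE 0.12, adjusted p = 0.00377) and gave -0.93, adjusted p = 0.517 in culture and 0.19, adjusted p = 0.73 in spleen on the log2 scale, and small Cas9 lesions need not lower a transcript, so its level did not check the labels in spleen or culture. The library labelled NFKBIE-wt spleen replicate 4 was closer over all genes to the NFKBIE-wt in vitro group (Pearson r = 0.991) than to its own (0.965), and replicate 3 of NFKBIE-wt in vitro, by its label, was closer to NFKBIE-wt spleen (0.990) than to its own (0.957). The first had 0 CPM of the macrophage gene C1qa and 0 of the granulocyte gene S100a8, and the second 6.33 and 30.7. Whether the pair were exchanged was not tested, so they were kept under their labels, and log2 differences of the members that rest on them are given with and without them. NFKBIE-wt in vitro replicates 1 and 2 were in turn closest to NFKBIE-ko in vitro, and the remaining 18 libraries were closest to their own group.

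**Figure D1:**
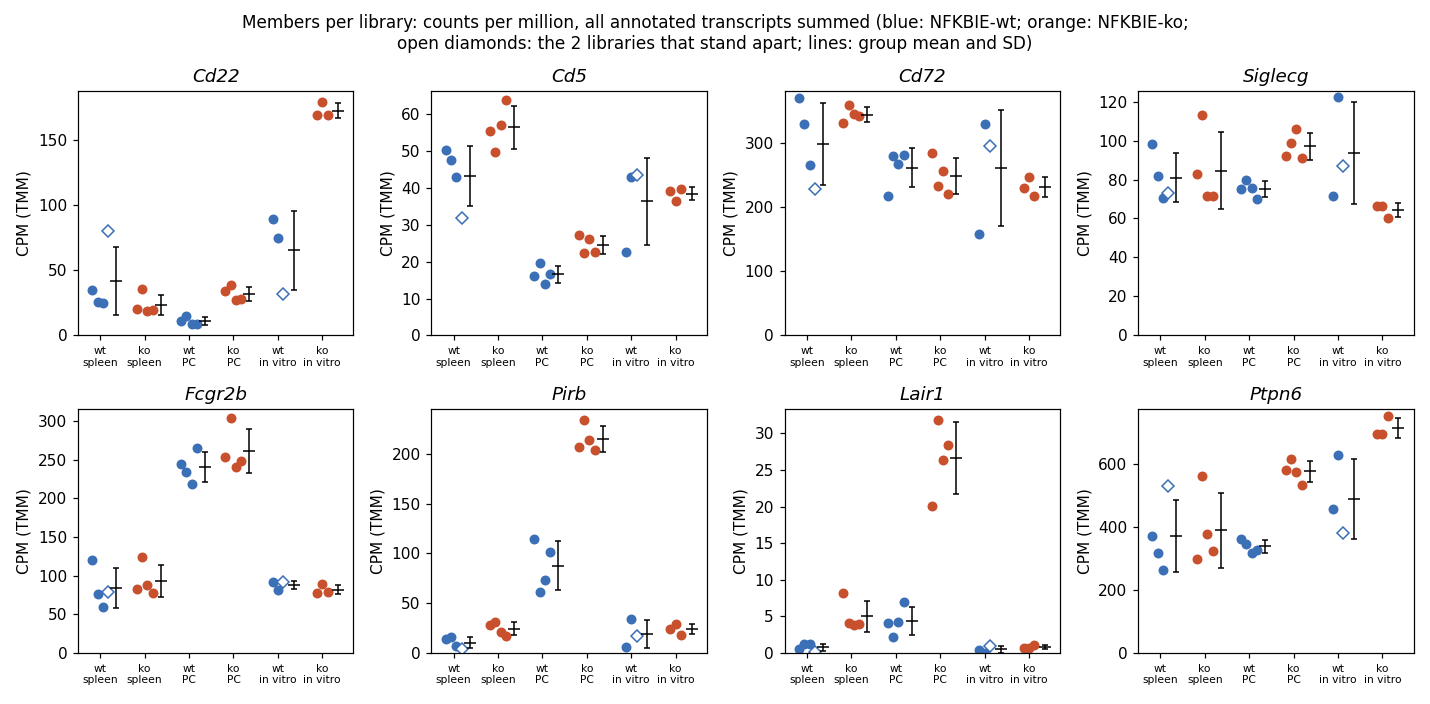
CPM of the 8 genes (vertical axes) in each library by group (horizontal axes), with the group mean and SD as lines, NFKBIE-wt in blue and NFKBIE-ko in orange. Cd22 is highest in the 3 NFKBIE-ko cultures (169 to 179 CPM), and Pirb and Lair1 in the 4 NFKBIE-ko PC samples (204 to 234 and 20.1 to 31.8 CPM). The open diamonds are the libraries that stand apart from their group.

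On a scale that corrects for transcript length (TPM, the counts divided by annotated transcript length and set to a common total), Ptpn6 was the most abundant of the 8 genes in each of the 6 groups, with mean levels from 263 ± 25.0 TPM (SD, n = 4) in NFKBIE-wt PC to 619 ± 27.9 TPM (n = 3) in NFKBIE-ko culture. Cd72 came next in each group, from 164 ± 26.0 TPM in NFKBIE-ko PC to 259 ± 41.9 TPM in NFKBIE-ko spleen. In both spleen groups the libraries of Ptpn6 and Cd72 overlapped, and the order of the pair was thus not clear of the spread there.

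The ranks below Ptpn6 and Cd72 changed with compartment. Siglecg, Fcgr2b and then Cd5 followed in both spleen groups, with Siglecg (51.3 ± 6.84 TPM in NFKBIE-wt) and Fcgr2b (47.7 ± 15.1 TPM) overlapping. Fcgr2b was next in both PC groups, where Pirb came next at 50.9 ± 11.1 TPM in NFKBIE-wt, overlapping Siglecg beneath it, and 126 ± 9.30 TPM in NFKBIE-ko. In NFKBIE-ko PC the libraries of Cd72 overlapped those of Fcgr2b, and those of Fcgr2b overlapped those of Pirb, so their order was not clear of the spread. Cd22 was the next in NFKBIE-ko culture (110.1 ± 3.64 TPM), clear of Fcgr2b beneath it (48.7 ± 2.54 TPM). Lair1 was last in 5 groups, at 0.648 ± 0.652 TPM in NFKBIE-wt spleen, and in NFKBIE-ko PC, where it reached 22.9 ± 5.06 TPM, Cd5 was last, overlapping Cd22. In NFKBIE-wt PC the libraries of Lair1 overlapped those of Cd22.

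The first comparison was NFKBIE-ko against NFKBIE-wt cells in each compartment, and most members that passed did so in the PC. There, 6 of the 8 genes rose in NFKBIE-ko at an adjusted p below 0.05 and none fell, against 22.5% of all 12642 genes tested that rose and 43.4% that changed either way. Lair1, Cd22 and Pirb rose more than 2-fold, while Ptpn6, Cd5 and Siglecg rose by less. The median difference was 0.66 on the log2 scale over the 8 genes and -0.0079 over all genes. The libraries of 6 of the 8 genes did not overlap between genotypes, which held for 41.6% of all genes. Because the 8 genes were chosen with earlier results of these data known, such shares describe the set and do not test it.

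Cd22 was at 10.7, 15.2, 8.63 and 8.47 CPM in the NFKBIE-wt PC samples and at 34.0, 38.9, 26.8 and 27.7 in the NFKBIE-ko PC samples. Each NFKBIE-ko sample was above all NFKBIE-wt samples, a 2.94-fold difference (log2 fold change 1.55, SE 0.19, adjusted p = 0.000165). Siglecg, the other lectin that binds sialic acid, was at 75.3, 79.6, 75.8 and 69.7 CPM in NFKBIE-wt and 92.1, 98.7, 106 and 91.2 in NFKBIE-ko. The groups were again separate, but the difference was small (log2 fold change 0.36, SE 0.069, adjusted p = 0.0019), and with all 22 samples in a single fit it was not called (adjusted p = 0.0907). Cd72, at 218 to 282 CPM in NFKBIE-wt and 221 to 285 in NFKBIE-ko, overlapped between genotypes (log2 fold change -0.086, SE 0.10, adjusted p = 0.533). Cd5 was at 16.2, 19.6, 14.1 and 16.6 CPM in NFKBIE-wt and 27.4, 22.4, 26.0 and 22.5 in NFKBIE-ko, with no overlap and 1.47-fold higher (log2 fold change 0.55, SE 0.11, adjusted p = 0.0028).

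Among receptors shared with myeloid cells, Lair1 was at 4.17, 2.15, 4.25 and 6.93 CPM in the NFKBIE-wt PC samples and 20.1, 31.8, 26.4 and 28.4 in the NFKBIE-ko PC samples. All NFKBIE-ko samples were higher than all NFKBIE-wt samples, a 6.05-fold difference (log2 fold change 2.60, SE 0.30, adjusted p = 0.000165), which was the largest of the 8. Pirb was at 114, 61.3, 73.6 and 101 CPM in NFKBIE-wt and 207, 234, 214 and 204 in NFKBIE-ko, without overlap (log2 fold change 1.28, SE 0.18, adjusted p = 0.00054). Fcgr2b was high in both genotypes, at 219 to 265 and 241 to 304 CPM, and overlapped (log2 fold change 0.11, SE 0.088, adjusted p = 0.356). The phosphatase gene Ptpn6 was at 362, 346, 316 and 328 CPM in NFKBIE-wt and 582, 615, 574 and 534 in NFKBIE-ko. Its groups were well apart (log2 fold change 0.76, SE 0.071, adjusted p = 1.93e-05), and it rose in the same samples as 5 of the 7 receptors. Leaving out any 1 of the 8 PC libraries left 6 of the 8 genes called.

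Markers of other cell types also moved between these samples, in which 22.5% of all genes rose and 43.4% changed. The summed level of 15 macrophage and monocyte markers was 646 to 1895 CPM in NFKBIE-wt PC and 4004 to 5884 in NFKBIE-ko PC (exact permutation test, two-sided, p = 0.0286, the smallest that 4 against 4 allows, and adjusted p = 0.0623 over 24 marker tests), and 12 of the 15 genes rose and 1 fell. The 10 B-cell markers summed to 12203 to 12691 CPM in NFKBIE-wt PC and 10132 to 10350.3 in NFKBIE-ko PC, with 2 higher and 4 lower. For 14 T-cell markers the sums were 266 to 344 CPM and 412 to 478, with 9 higher and 2 lower. The part of these cells in the changes of the 8 genes was not tested, and in bulk RNA fewer cells of a type and less RNA per cell cannot be told apart.

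**Figure D2:**
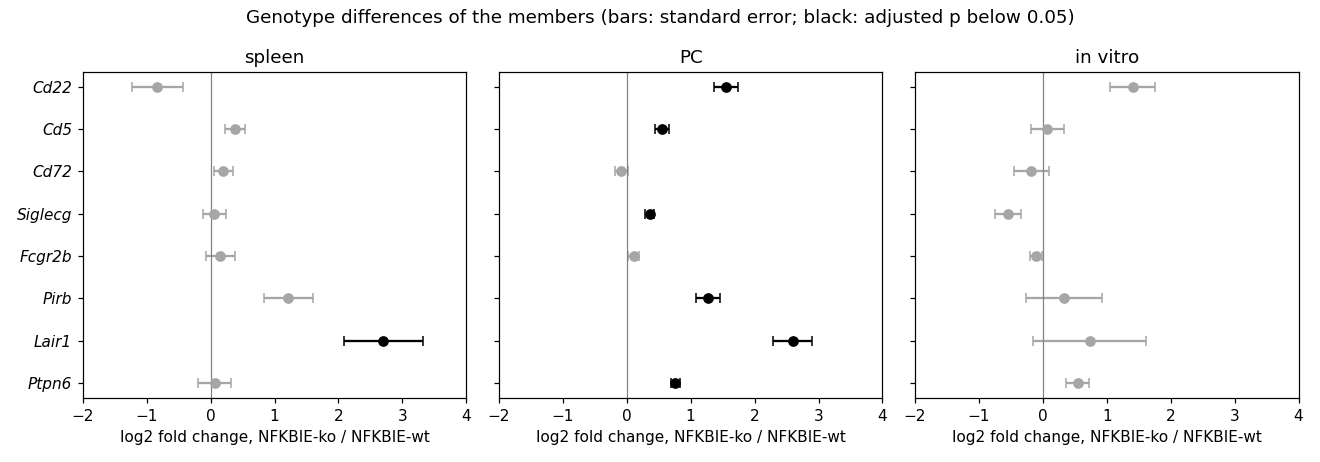
Log2 fold change of NFKBIE-ko against NFKBIE-wt (horizontal axis) with its standard error for each of the 8 genes in spleen, PC and culture. In the PC Lair1 (2.60), Cd22 (1.55) and Pirb (1.28) lie farthest to the right, while Cd22 lies at -0.83 in the spleen (-0.28 without the NFKBIE-wt library that stands apart).

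In the spleen, Lair1 alone passed the test, 1 of 8 genes against 5.43% of 12221 genes. Lair1 was at 0.562, 1.21, 1.17 and 0.116 CPM in the NFKBIE-wt spleen libraries and 8.23, 4.06, 3.85 and 3.92 in the NFKBIE-ko spleen libraries, without overlap (log2 fold change 2.70, SE 0.62, adjusted p = 0.0379). Estimated counts behind the NFKBIE-wt values were 3 to 30 per library, and leaving out NFKBIE-wt replicate 1, 2 or 3 or NFKBIE-ko replicate 1, 3 or 4 ended the call, with adjusted p from 0.0553 to 0.128. It remained called without NFKBIE-wt spleen replicate 4, the library that stands apart (2.35, adjusted p = 0.00856), where 12.2% of genes were called. Pirb was at 13.7, 16.1, 7.53 and 4.25 CPM in NFKBIE-wt and 27.8, 31.3, 20.9 and 17.0 in NFKBIE-ko, also without overlap, yet did not pass (log2 fold change 1.22, SE 0.38, adjusted p = 0.103, and 0.96, adjusted p = 0.0642 without that library). The libraries did not overlap for these 2 genes, against 16.3% of all genes.

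Cd22 was at 34.9, 25.9, 25.2 and 80.5 CPM in the NFKBIE-wt spleen libraries and 20.5, 35.3, 18.9 and 19.5 in the NFKBIE-ko spleen libraries. The genotypes overlapped through NFKBIE-ko replicate 2 (log2 fold change -0.83, SE 0.40, adjusted p = 0.246), and the highest value, 80.5 CPM, belongs to the NFKBIE-wt library that stands apart. Without that library the NFKBIE-wt mean was 28.7 ± 5.42 CPM (SD, n = 3) and the log2 fold change shrank to -0.28, adjusted p = 0.488. Cd5 was at 50.4, 47.5, 43.0 and 31.8 CPM in NFKBIE-wt and 55.5, 49.7, 57.0 and 63.9 in NFKBIE-ko, overlapping through a single NFKBIE-ko library (log2 fold change 0.38, SE 0.15, adjusted p = 0.176, and 0.27, adjusted p = 0.2 without the library that stands apart). Differences of Cd72 (0.20), Siglecg (0.059), Fcgr2b (0.15) and Ptpn6 (0.062) were below 0.25 on the log2 scale, and without that library they were 0.097, 0.019, 0.13 and 0.29, none of them called. The macrophage and monocyte markers summed to 39.0 to 102 CPM in NFKBIE-wt spleen and 108 to 394 in NFKBIE-ko spleen, edgeR called 0 of 13 tested genes, 7 had an unadjusted p below 0.05 and DESeq2 called 2 (edgeR called 3 of 14 without the library that stands apart), and their part in the Lair1 and Pirb values was not tested.

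In culture, edgeR called none of the 8 genes, where 0.0341% of 11722 genes (4) were called, and 3 of the 8 had an unadjusted p below 0.05. Cd22 was at 89.4, 75.2 and 31.4 CPM in the NFKBIE-wt cultures and 169.7, 179 and 169 in the NFKBIE-ko cultures. The 3 NFKBIE-ko cultures were close together and above all NFKBIE-wt cultures (log2 fold change 1.40, SE 0.36, adjusted p = 0.447), and DESeq2 called this gene alone among the 8 (adjusted p = 0.0078). Ptpn6 was at 456, 629 and 381 CPM in NFKBIE-wt and 695, 696 and 750.1 in NFKBIE-ko, likewise apart (log2 fold change 0.54, SE 0.18, adjusted p = 0.517). Siglecg was at 71.4, 122 and 86.8 CPM in NFKBIE-wt and 66.6, 66.2 and 60.1 in NFKBIE-ko, with each NFKBIE-ko culture beneath all NFKBIE-wt cultures (log2 fold change -0.55, SE 0.20, adjusted p = 0.517). Groups were separate for these 3 genes, against 19.7% of all genes. Without NFKBIE-wt in vitro replicate 3, the library that stands apart, edgeR again called none of the 8 (9 of 11865 genes), with 1.08, adjusted p = 0.0631 for Cd22, 0.40, adjusted p = 0.492 for Ptpn6 and -0.59, adjusted p = 0.501 for Siglecg.

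Pirb was at 5.71, 33.9 and 17.1 CPM in NFKBIE-wt cultures and 24.5, 28.7 and 18.4 in NFKBIE-ko cultures, where 6 of the 15 macrophage and monocyte markers (C1qa, C1qc, Cd14, Cd163, Fcgr1 and Marco) were at 0 in all 3 libraries and Lyz2 did not exceed 0.188 CPM, while Adgre1 was at 20.6 to 28.7 CPM and Cd68 at 8.41 to 10.7 CPM. All 15 markers together summed to 42.0 to 51.2 CPM in these NFKBIE-ko cultures, and which cells carried the Pirb transcripts was not tested. Lair1 was at most 1.12 CPM in any culture, and its difference was 0.73 with all cultures and 1.69 without the library that stands apart, against 0.33 and 0.27 for Pirb. Cd5 (0.07), Cd72 (-0.18) and Fcgr2b (-0.12) overlapped between genotypes, and gave 0.23, -0.072 and -0.074 without that library.

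Whether the genotype effect differed between compartments was tested with an interaction term over all 22 samples. The effect on Cd22 was lower in the spleen than in the PC on the log2 scale (difference -2.39, SE 0.50, adjusted p = 0.011), and 4.92% of 13537 genes passed this test. Cd22 was the one member of the 8 to do so, and without the pair of libraries that stand apart the difference was -1.83 (adjusted p = 0.00165). Between spleen and culture the same gene gave -2.23, SE 0.54, adjusted p = 0.064, where 0.443% of genes passed, and -1.35, adjusted p = 0.068 without that pair. Between the PC and culture the difference of its effects was 0.16, SE 0.53, adjusted p = 0.931, and 0.48, adjusted p = 0.454 without them. Siglecg passed between the PC and culture (0.91, SE 0.24, adjusted p = 0.0354), with 4.8% of genes passing, though in 11 of 14 cases leaving out a single library ended the call (adjusted p from 0.0516 to 0.097), and it held without NFKBIE-wt in vitro replicate 1 or NFKBIE-ko PC replicate 1 or 4, and without the pair that stand apart (0.95, adjusted p = 0.0349). The Ptpn6 effect did not pass between spleen and PC (-0.70, SE 0.28, adjusted p = 0.16), nor without that pair (-0.46, adjusted p = 0.247). For Lair1, at 2.70 in the spleen and 2.60 in the PC, the difference of effects was 0.097, SE 0.76, adjusted p = 0.96, and -0.24, adjusted p = 0.857 without the pair.

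The second comparison was between compartments within a genotype. These comparisons share groups with one another and with those above, so their values are set side by side and not counted as separate support. Between the PC and the spleen, 5 of 8 genes were called in NFKBIE-wt (background 28.6%) and 6 in NFKBIE-ko (59.8%), and 5 did not overlap in either genotype (33.2% and 55.4% of all genes). Pirb, Lair1 and Fcgr2b were higher and Cd5 lower in the PC in both genotypes. Pirb was 8.56-fold higher in NFKBIE-wt (log2 fold change 3.10, SE 0.42, adjusted p = 0.00136) and 8.81-fold higher in NFKBIE-ko (log2 fold change 3.14, SE 0.18, adjusted p = 1.16e-06). Lair1 differed by 2.53, adjusted p = 0.0182 and 2.40, adjusted p = 4.53e-05 on the log2 scale. The NFKBIE-wt call of Lair1 was lost without PC replicate 4 (adjusted p = 0.0573), without spleen replicate 1 (adjusted p = 0.0543) and with the sample number as a block (adjusted p = 0.0792). Without NFKBIE-wt spleen replicate 4, the library that stands apart, 5 genes were again called (against 35.7% of all genes), with 2.83, adjusted p = 0.000309 for Pirb, 2.17, adjusted p = 0.00586 for Lair1, 1.51, adjusted p = 0.00113 for Fcgr2b, -1.48, adjusted p = 0.000128 for Cd5 and -1.40, adjusted p = 0.00154 for Cd22.

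Fcgr2b was at 120.2, 75.7, 59.9 and 78.7 CPM in NFKBIE-wt spleen against 245, 234, 219 and 265 in NFKBIE-wt PC, with the groups far apart (log2 fold change 1.55, SE 0.20, adjusted p = 0.00113). In NFKBIE-ko it moved from 83.4, 124, 88.0 and 77.5 CPM to 254, 304, 241 and 248, again without overlap (log2 fold change 1.48, SE 0.15, adjusted p = 2.83e-05). Cd5 fell by 1.35 in NFKBIE-wt (adjusted p = 0.000892) and by 1.21 in NFKBIE-ko (adjusted p = 1.18e-05) on the log2 scale. The macrophage marker sum moved with these values, from at most 394 CPM in any spleen library to at least 646 CPM in any PC library, and its part was not tested.

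The behaviour of Cd22 between these compartments differed by genotype, as the interaction above shows. It fell by 1.92 on the log2 scale from spleen to PC in NFKBIE-wt (adjusted p = 0.00805), without overlap, and was not called in NFKBIE-ko (log2 fold change 0.43, SE 0.21, adjusted p = 0.111). Without NFKBIE-ko spleen replicate 2, however, it was called higher in the NFKBIE-ko PC (0.70, adjusted p = 0.00106), as was Siglecg (0.37, adjusted p = 0.00323), which brought the count to 8 of 8. In NFKBIE-ko, 6 of the 8 and 59.8% of all genes were called with every library kept. The share without replicate 2 is not given here, so the 8 of 8 has no matching share beside it. With the sample number as a block Cd22 was called there too (0.46, adjusted p = 0.0144). Cd72 fell by 0.48 in NFKBIE-ko (adjusted p = 0.00146) and gave -0.17, adjusted p = 0.49 in NFKBIE-wt (-0.28, adjusted p = 0.162 without the library that stands apart). Ptpn6 rose in NFKBIE-ko (log2 fold change 0.56, SE 0.18, adjusted p = 0.0225), with 3 of 4 PC samples above every spleen sample, and gave -0.11, adjusted p = 0.711 in NFKBIE-wt (0.11, adjusted p = 0.558 without that library). The NFKBIE-ko call of Ptpn6 was lost without PC replicate 2 or without spleen replicate 1, 3 or 4, with adjusted p from 0.0504 to 0.0647.

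Between spleen and culture, edgeR called none of the 8 genes in NFKBIE-wt, where it called 0% of 12332 genes, 0 of the 8 had an unadjusted p below 0.05, DESeq2 called 0 of the 8, and 0 were without overlap (1.91% of all genes). That comparison holds both libraries that stand apart, and without them Cd22 was lower in spleen (-1.52, adjusted p = 0.0107) and 831 genes (6.66%) were called, while the other 7 were not. In NFKBIE-ko, 5 of 8 were called (background 38.8%) and 6 did not overlap (48.7%). Cd22 fell from 173 ± 5.67 CPM (SD, n = 3) in culture to 23.5 ± 7.87 (n = 4) in the spleen (log2 fold change -2.87, SE 0.22, adjusted p = 4.89e-05). Lair1 (2.58, adjusted p = 0.00117), Cd72 (0.58, adjusted p = 0.000652) and Cd5 (0.56, adjusted p = 0.00299) were higher in the spleen, and Ptpn6 (-0.87, adjusted p = 0.00936) was lower.

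Between the PC and culture, 5 of 8 genes were called in NFKBIE-wt (background 21.4%) and 7 of 8 in NFKBIE-ko (67.8%), with 6 (37.4%) and 7 (69.8%) that did not overlap. Cd22 and Cd5 were lower and Fcgr2b, Pirb and Lair1 higher in the PC in both genotypes. Cd22 gave -2.56, adjusted p = 0.00592 in NFKBIE-wt and -2.38, adjusted p = 1.96e-07 in NFKBIE-ko on the log2 scale. Lair1 gave 3.15, adjusted p = 0.0395 and 5.04, adjusted p = 8.22e-08. Siglecg rose (0.65, adjusted p = 2.13e-05) and Ptpn6 fell (-0.25, adjusted p = 0.00379) in NFKBIE-ko, and only Cd72 was not called there. That Ptpn6 call was lost with all 22 samples in a single fit (-0.31, adjusted p = 0.245). In NFKBIE-wt the count was 2 without PC replicate 1, 3 or 4, 3 without PC replicate 2, 4 without in vitro replicate 1 and 5 without in vitro replicate 2 or 3, and Cd22 and Fcgr2b were called in each case. Over all genes, 2688 were called with all libraries, and 917, 1461, 1414 and 1063 without PC replicate 1, 2, 3 and 4. Leaving out in vitro replicate 1 gave 1591 such calls, and leaving out in vitro replicate 3 gave 4835 (37.7%). Without in vitro replicate 3, the library that stands apart, Ptpn6 was called (-0.64, adjusted p = 0.0138) and Pirb was not (2.19, adjusted p = 0.0548), and Cd22 gave -2.89, adjusted p = 0.000362, Lair1 4.11, adjusted p = 0.011, Fcgr2b 1.52, adjusted p = 0.000331 and Cd5 -0.94, adjusted p = 0.0249.

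Transcripts were then examined one by one, because the set includes receptors whose forms differ in the tail or the extracellular part. Of the 62 transcripts, 41 passed the low-count filter in spleen, 47 in the PC and 45 in culture. In the PC, 13 transcripts of 6 genes rose and none fell, against 13% of 34098 transcripts called, while all 22 samples in a single fit gave 3 and the sample number as a block gave 6, and 23 did not overlap between genotypes (22% of all). None was called by edgeR in spleen, where 5 had an unadjusted p below 0.05 (0.354% of all transcripts called), or in culture, where 6 did and no transcript at all was called (DESeq2 called 1 member transcript in the spleen and 0 in culture). Transcripts without overlap numbered 4 in spleen (9.45% of all) and 17 in culture (14.4%), and 10 of the 17 were from Cd22.

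Ptpn6-202, the major form with 92.6% of the gene's counts, rose in the PC (log2 fold change 0.79, SE 0.078, adjusted p = 0.000654), as did Ptpn6-201 (log2 fold change 1.27, SE 0.13, adjusted p = 0.000718), which begins at an upstream first exon. Of the 13 called transcripts, 4 were from Pirb, and 86.6% of Pirb counts lay on transcripts annotated with a retained intron, while the coding form Pirb-201 took 13.4%. Pirb-201 itself rose (log2 fold change 1.41, SE 0.23, adjusted p = 0.00569). Pirb shares near-identical sequence with the activating Pira genes, so the division of reads among them is uncertain. Fcgr2b-201 rose (log2 fold change 0.48, SE 0.13, adjusted p = 0.0462) although the gene's sum did not pass.

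Lair1-202 was at 0 estimated counts in all 4 NFKBIE-wt PC samples and at 98.7, 181, 102 and 195 estimated counts in the NFKBIE-ko PC samples, at least 48.2-fold higher against a floor of 3 counts per library (adjusted p = 0.000996). Lair1-201, which lacks the exon for the Ig-like domain, was at 43.9, 20.0, 43.8 and 75.5 estimated counts in NFKBIE-wt PC and 175, 218, 194 and 241 in NFKBIE-ko PC, and also rose (log2 fold change 2.18, SE 0.40, adjusted p = 0.00927). At such counts the split between forms is an estimate by Salmon from reads that both forms share. The exon that separates the forms, exon 3 of 8 (GRCm39 chr7:4031706-4032035, minus strand, 110 codons), encodes the domain that binds collagen, and its first 150 bases (chr7:4031886-4032035) are shown for that reason.
Lair1 exon, first bases: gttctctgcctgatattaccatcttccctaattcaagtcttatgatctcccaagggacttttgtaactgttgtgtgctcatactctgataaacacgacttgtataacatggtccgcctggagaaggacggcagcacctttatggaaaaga

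For Fcgr2b and Cd72, the share of counts on coding forms with a given exon, among coding forms with it and those that skip it whole, was compared, in exons chosen after the values had been seen. Fcgr2b exon 6 of 8 in Fcgr2b-201 (GRCm39 chr1:170790894-170791034, minus strand, 141 bases, 47 codons) is the cytoplasmic insertion known from the B-cell form b1, which the myeloid form b2 lacks. Capitals mark the 57 bases that Fcgr2b-203 keeps, a form left out of the shares.
Fcgr2b exon: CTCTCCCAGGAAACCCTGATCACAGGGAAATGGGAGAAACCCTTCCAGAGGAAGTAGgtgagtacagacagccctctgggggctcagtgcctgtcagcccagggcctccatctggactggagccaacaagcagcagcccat
Forms with the exon made up 51.9%, 51.6% and 52.0% of the counts on Fcgr2b-201, Fcgr2b-204 (both with it) and Fcgr2b-202 (without it) in the NFKBIE-ko cultures and 28.2%, 34.3%, 31.0% and 34.9% in NFKBIE-ko spleen, 19.8 percentage points apart without overlap. In the PC the shares were 29.3%, 28.6%, 30.6% and 26.8% in NFKBIE-wt and 33.0%, 31.8%, 33.6% and 31.8% in NFKBIE-ko, a gap of 3.73 points. In NFKBIE-wt they were 26.7%, 30.1%, 34.4% and 51.2% in spleen and 50.7%, 52.6% and 29.8% in culture, where the library labelled spleen replicate 4 lay among the cultures and the library labelled in vitro replicate 3 among the spleens.

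Cd72 exon 3 of 9 (GRCm39 chr4:43453641-43453712, minus strand, 72 bases, 24 codons) is present in Cd72-205 and Cd72-201 and skipped in Cd72-203, and another Cd72 exon (GRCm39 chr4:43449452-43449549, minus strand) can be 21 bases longer at its 5′ end, shown in capitals.
Cd72 skipped exon: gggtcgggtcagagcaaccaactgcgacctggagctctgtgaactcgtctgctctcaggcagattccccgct
Cd72 long exon: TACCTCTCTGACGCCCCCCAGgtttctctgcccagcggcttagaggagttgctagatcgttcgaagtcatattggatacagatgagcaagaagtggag
The skipped exon was in 58.1%, 54.8%, 53.9% and 54.7% of coding counts in NFKBIE-wt PC and 56.7%, 52.2%, 55.2% and 59.0% in NFKBIE-ko PC. In the spleen it was in 39.9%, 45.4%, 43.7% and 45.0% for NFKBIE-wt and 41.6%, 39.7%, 45.0% and 43.7% for NFKBIE-ko, so every PC sample was above every spleen sample of its genotype, by 11.9 and 13.3 points on average. Cultures were at 42.5% ± 4.73 and 43.6% ± 2.20 (SD, n = 3), also below the PC. The level of the Cd72 gene in the PC overlapped between genotypes, as did this share. The longer form of the other exon made up 66.1% ± 1.57 in NFKBIE-wt PC and 59.8% ± 2.82 in NFKBIE-ko PC (SD, n = 4), without overlap. Over 36 exact permutation tests of such shares the smallest p, 0.0286, was the smallest that the design allows, and it became 0.129 after adjustment, so none passed.

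**Figure D3:**
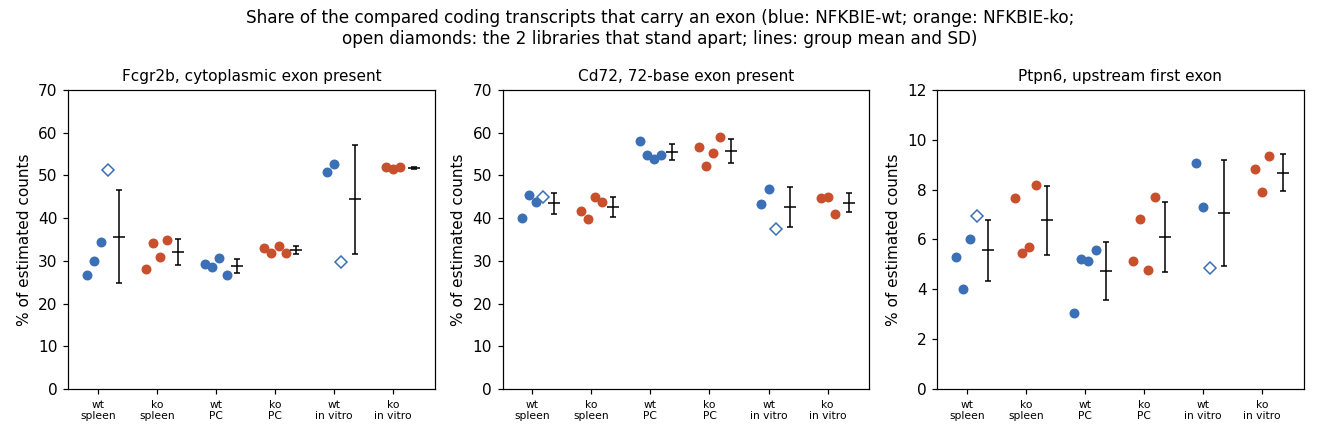
Percent of estimated counts on the compared coding forms that carry an exon of Fcgr2b, Cd72 or Ptpn6 (vertical axes), per library and group (horizontal axes), with mean and SD as lines. The Fcgr2b insertion is at 51.6% to 52.0% in the NFKBIE-ko cultures, and the skipped Cd72 exon is at 52.2% or more in all 8 PC samples and at 46.9% or less in all others.

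The partners of the set were read from 5 lists whose members were chosen by function, with log2 fold changes of NFKBIE-ko against NFKBIE-wt. Earlier results of these data were known when the lists were chosen. Shares of all genes beside their counts thus describe the lists and do not test them. Of 17 ITIM effectors (kinases, phosphatases and adaptors, Ptpn6 included), 12 rose and 3 fell in the NFKBIE-ko PC (over all genes 22.5% rose and 43.4% changed), with a median of 0.51 against -0.0079 over all genes. Ubash3b, a phosphatase that restrains Syk, had the largest rise (2.20, adjusted p = 6.7e-07), followed by the adaptors Dok2 (1.46, adjusted p = 0.00963) and Dok1 (0.92, adjusted p = 5.89e-05), while the phosphatase gene Ptpn22 fell (-0.87, adjusted p = 0.00019). In spleen, where 5.43% of all genes were called, 1 of the 17, the kinase gene Fyn, rose (1.11, adjusted p = 0.0403, with 4 at an unadjusted p below 0.05, DESeq2 1), and in culture edgeR called 0 of 16 tested (4 at an unadjusted p below 0.05, DESeq2 1). Of 14 BCR chain targets (receptor chains and proteins that carry its signal), 6 rose and 2 fell in the PC, 8 of 14 against 43.4% of all genes. Among them Cr2, the complement receptor CD21, fell (-3.35, adjusted p = 7.28e-07) and Rasgrp3, an activator of Ras, rose (2.27, adjusted p = 3.21e-06), as did Pik3r1 (0.80, adjusted p = 9.46e-06), a subunit of phosphoinositide 3-kinase, and Vav2 (0.46, adjusted p = 0.000517), an exchange factor. In spleen the BCR chain gene Cd79b fell (-0.94, adjusted p = 0.038, with 5 of 14 at an unadjusted p below 0.05, DESeq2 3), and in culture edgeR called 0 of 14 (1 at an unadjusted p below 0.05, DESeq2 0).

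Of 15 genes for ligands and for sialic acid synthesis, 3 of 13 tested fell in the spleen (8 at an unadjusted p below 0.05, DESeq2 5), against 5.43% of all genes called. These were Cmah, which makes the glycolyl form of sialic acid that murine CD22 prefers (-1.88, adjusted p = 0.00501), St6gal1, which adds the linkage that CD22 binds (-0.98, adjusted p = 0.00867), and Gne, which starts the synthesis (-0.56, adjusted p = 0.0308). In the PC 6 rose and 4 fell of 14 tested, against 43.4% of all genes called, among them the collagen gene Col3a1 (-3.46, adjusted p = 0.000873). The LAIR-1 ligand genes C1qa (1.58, adjusted p = 0.0316), C1qc (1.42, adjusted p = 0.0309) and C1qb (1.28, adjusted p = 0.0446), which are also macrophage markers, rose. In culture edgeR called 0 of 9 tested (1 at an unadjusted p below 0.05, DESeq2 0). Of 14 other ITIM receptors, 7 rose and 2 fell in the PC, where 22.5% of all genes rose and 43.4% changed. The rises were led by Siglecf (3.47, adjusted p = 8.26e-07), Clec12a (1.82, adjusted p = 0.000791), Ceacam1 (1.52, adjusted p = 1.77e-05) and Cd300a (1.14, adjusted p = 3.2e-05). Btla, an inhibitory receptor of lymphocytes, fell in spleen (-0.98, adjusted p = 0.0312, with 4 of 13 at an unadjusted p below 0.05, DESeq2 2), and in culture edgeR called 0 of 10 tested (2 at an unadjusted p below 0.05, DESeq2 1).

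The last list held relatives of the set and their adaptor chains, most of them activating, and 11 of its 13 genes were in the table. In the PC 10 of the 11 rose, with a median of 1.37, where 22.5% of all genes rose. Among them were the activating counterparts of Pirb, Pira2 (2.51, adjusted p = 8.62e-05) and Pira12 (2.37, adjusted p = 4.65e-06). The macrophage receptor Siglec1 (2.15, adjusted p = 0.00865) and the CD5 relative Cd6 (1.65, adjusted p = 0.00322) rose as well. In spleen, where 5.43% of all genes were called, 3 of 10 tested rose. These were Pira1 (2.10, adjusted p = 0.0165), Pira2 (1.93, adjusted p = 0.0035) and Fcgr4 (1.76, adjusted p = 0.0451), while 9 of the 10 had an unadjusted p below 0.05 and DESeq2 called 9. In culture edgeR called 0 of 9 (1 at an unadjusted p below 0.05, DESeq2 1). Without NFKBIE-wt spleen replicate 4, the library that stands apart, edgeR called in spleen 6 of 11 relatives (all higher), 3 of 17 ITIM effectors, 4 of 14 BCR chain targets, 4 of 13 ligand and sialic acid genes (all lower) and 4 of 13 other ITIM receptors, against 12.2% of all genes, and in culture, without NFKBIE-wt replicate 3, it called none of any list. Several of the relatives are chiefly myeloid, and the macrophage marker sums given above moved in the same samples. Fcgr1 is in both lists, and the part of macrophages in the values of the relatives was not tested.

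**Figure D4:**
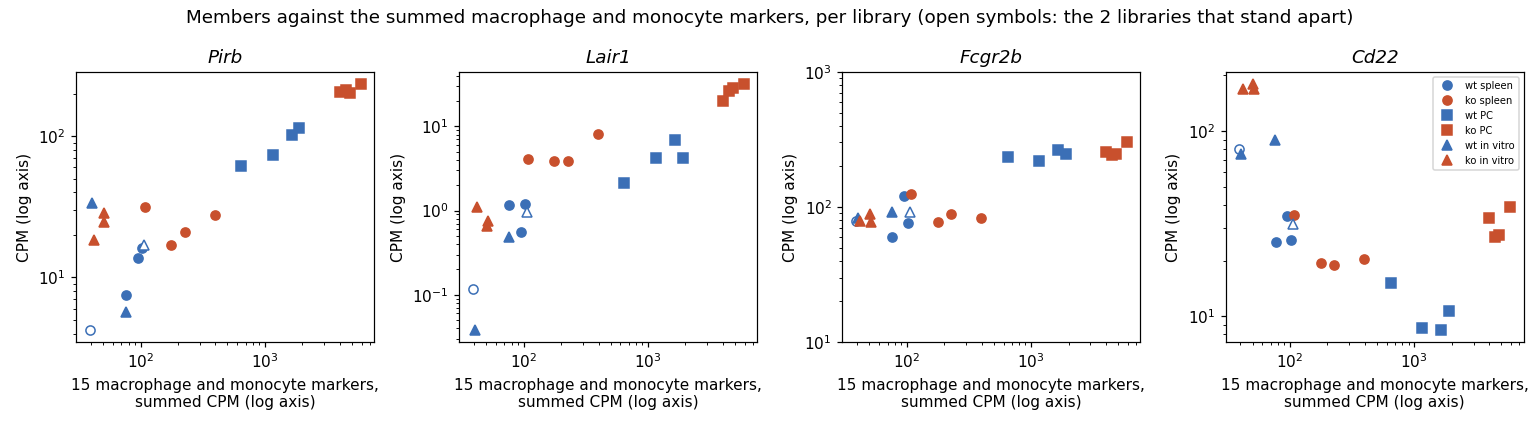
CPM of Pirb, Lair1, Fcgr2b and Cd22 (vertical log axes) against the summed CPM of 15 macrophage and monocyte markers (horizontal log axes), a point per library. The NFKBIE-ko PC samples lie at the highest marker sums, 4004 to 5884 CPM, and at the highest Pirb and Lair1, whereas Cd22 is highest in NFKBIE-ko cultures with sums of 42.0 to 51.2 CPM.

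The other marker lists were read in the same libraries, with mean sums in CPM and counts of called genes. Over all genes, 43.4% were called in the PC (22.5% higher), 5.43% in spleen and 0.0341% in culture. The spleen share was 12.2% without the library that stands apart. Such shares describe the marker lists and do not test them. In the PC, CD8+ cytotoxic and NK markers stood at 52.8 against 20.3 (NFKBIE-ko against NFKBIE-wt), with 8 of 11 higher, and T-cell markers at 444 against 308, with 9 of 14 higher and 2 lower. Granulocyte markers ran the other way, at 43.1 against 289, with 7 of 8 lower. Dendritic-cell markers were at 80.7 against 48.3 (2 of 6 higher), plasma-cell markers at 381 against 507 (3 of 6 lower) and erythroid markers at 111 against 127 (0 of 2, none at an unadjusted p below 0.05 and 1 by DESeq2). In the spleen, CD8+ cytotoxic and NK markers were at 73.3 against 9.51 (5 of 10 higher, DESeq2 7), T-cell markers at 294 against 214 (1 of 14 higher by edgeR, 9 at an unadjusted p below 0.05 and 8 by DESeq2), dendritic-cell markers at 72.5 against 32.4 (2 of 7 higher), plasma-cell markers at 520.2 against 721 (4 of 6 lower) and B-cell markers at 7905 against 10841 (2 of 10 lower, DESeq2 3). Without the library that stands apart, 7 of 10 CD8+ cytotoxic and NK markers were higher, and of 14 T-cell markers 6 were higher and 1 lower. Spleen granulocyte markers, at 179.8 against 172, and erythroid markers, at 279.8 against 296, had 0 genes called by edgeR, by DESeq2 or at an unadjusted p below 0.05. The NFKBIE-wt spleen granulocyte sums were 214, 410, 62.7 and 0.0387 CPM, the last in the library that stands apart. In culture edgeR called no marker gene of any list (DESeq2, without the edgeR filter, 3 of 14 T-cell markers, 1 each of the B-cell, CD8+ cytotoxic and NK, and macrophage and monocyte markers, and 0 of the others). The culture sums were 8779 against 11492 for B cells, 209 against 222 for T cells, 1.83 against 11.5 for CD8+ cytotoxic and NK cells, 47.9 against 74.5 for macrophages and monocytes, 0.195 against 70.5 for granulocytes, 90.9 against 47.2 for dendritic cells, 412 against 809 for plasma cells and 324 against 320.0 for erythroid cells. NFKBIE-wt cultures varied widely, with granulocyte sums of 2.49, 0.154 and 209 CPM, the last in replicate 3, the library that stands apart. Their dendritic-cell sums were 26.9, 88.0 and 26.7 CPM, and their plasma-cell sums 1352, 438 and 637. By exact permutation tests none of the 24 sums differed at an adjusted p below 0.05. The smallest p the design allows, 0.0286 for 4 against 4 and 0.1 for 3 against 3, became 0.0623 and 0.171 after adjustment. Sums that reached 0.0286 did not overlap between genotypes, so these tests cannot show that the sums were alike. The part of these cells in the values of the 8 genes was not tested.

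To show which transcripts followed each gene over the 22 libraries, the 2 closest of 12633 genes were taken by Pearson's r of log2(CPM + 1). Spleen and PC libraries share donor mice, and libraries share compartments, so these values only describe likeness. Pirb was closest to Lgals3 (0.970) and Tyrobp (0.969), both strongly expressed in myeloid cells. Lair1 was closest to C3 (0.974) and Il1a (0.974), and Fcgr2b to Myl9 (0.958) and Ttll11 (0.958). Cd22 was closest to Ffar1 (0.946) and Ccdc50 (0.943). Cd5 was closest to Cenps (0.928) and Kcnk10 (0.928), and Ptpn6 to Lrrc75a (0.935) and Zfp385a (0.932). Siglecg, with Dnajc7 (0.781) and Chmp1b (0.763), and Cd72, with Septin1 (0.805) and Rtn4rl2 (0.797), had no gene as near. Within the set, Pirb and Fcgr2b were the most alike (r = 0.888), then Pirb and Lair1 (0.840) and Cd22 and Ptpn6 (0.776), while Cd5 and Fcgr2b ran opposite (-0.78).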

How the data were processed

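RNA of 22 samples was sequenced with paired-end reads on a NovaSeq instrument from TruSeq mRNA libraries. The genes altered in the TKO background that all groups share are not reported here. Per the submitters' processing notes, the authors used CASAVA, Salmon 1.8 and DESeq2 with the mouse build GRCm39, and the deposited table holds estimated counts by transcript, not normalized (69.5% of values are not whole numbers). Salmon divides reads that fit several transcripts or near-identical genes, so shares between forms are estimates.

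Transcripts were named with GENCODE vM39 (62147 of 62492 matched, with 0.619% of counts unmatched), summed per gene and rounded. The 8 genes and the lists were chosen with earlier results of these data known. CPM are scaled by TMM, and TPM use annotated transcript lengths. Genes passing filterByExpr were tested within each pair of groups by edgeR 4.0.16 (R 4.3.3, limma 3.58.1), using the robust quasi-likelihood test with Benjamini-Hochberg adjustment over all genes (threshold 0.05), and interactions over all 22 samples. Shares and marker sums were tested by two-sided exact permutation. Named genes were the members, Nfkbie, the 2 genes most alike each member and, per list, up to 4 called genes with the largest change. Lists were ITIM effectors, BCR chain targets, ligands and sialic acid genes, other ITIM receptors, relatives, and 8 sets of cell markers.

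Depth was 24036763 to 26581304 estimated counts per library. Where samples are not stated to be separate animals, p-values measure the spread between samples only. No pair of replicates agreed within counting noise (30 pairs). Alternatives were DESeq2 1.42.0 as test or size factors, other filters, all 22 samples, a replicate block, protein-coding transcripts only, leaving out each library, and, chosen after seeing the data, leaving out both libraries that stand apart. The scripts were tested on simulated data.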

Additional observations from a re-analysis of the deposited data

Results flagged for a closer look

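Cd22 and Lair1 each had a library in the NFKBIE-ko spleen group that lay far from the other 3 by Dixon's test, in which the gap to the nearest value is divided by the range of the group. Cd22 was at 35.3 CPM in replicate 2 (gap over range 0.902), and Lair1 at 8.23 CPM in replicate 1 (0.952), both above the critical value at the 95% level. Chance gives about 1 such library in 20 groups, and 32 groups of 4 were tested. Ptpn6 (561 CPM) and Nfkbie (54.2 CPM) were also farthest from their group in NFKBIE-ko spleen replicate 2.

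The effect of the genotype on Cd22 differed between spleen and PC by -2.39 on the log2 scale (interaction test, edgeR, adjusted p = 0.011). The difference ran from -2.65 to -1.85 when a single library was left out, and was -1.83 (adjusted p = 0.00165) without both libraries that stand apart. The effect was 1.55 in the PC and -0.83 in the spleen, where it was not called (adjusted p = 0.246). Without the NFKBIE-wt spleen library that stands apart it was -0.28 there (adjusted p = 0.488). The effect on Siglecg differed between PC and culture by 0.91 (adjusted p = 0.0354), with 0.67 to 1.07 when a single library was left out. In most of those cases the Siglecg call was lost (adjusted p from 0.0516 to 0.097). Without both libraries that stand apart the difference was 0.95 (adjusted p = 0.0349).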

How the results depend on the processing

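Over 927 log2 values of the 8 genes under alternatives, 858 kept their sign and their side of the threshold, 46 lost and 16 gained a call, and 7 uncalled values changed sign. Of 235 counts of members called, 198 stayed within 1.5 times. DESeq2 called 2 genes in spleen (Pirb in addition, adjusted p = 0.0183), 1 in culture, 1 transcript in spleen and 1 gene (Cd22, adjusted p = 0.00235) between the genotype effects in spleen and culture. Same-numbered samples did not all vary together (r of their deviations from -0.33 to 0.45, and no comparison with every pair over 0.1). With the replicate block, which thus rests on a shared number only, the counts were 0 in spleen (Lair1 2.93, adjusted p = 0.128), 0 for PC against culture in NFKBIE-wt and 6 transcripts in the PC, and in NFKBIE-ko Cd22 was called between PC and spleen (0.46, adjusted p = 0.0144). All 22 samples in 1 fit gave 3 transcripts in the PC. Without both libraries that stand apart, a setting chosen after seeing the data, 1 gene was called between spleen and culture in NFKBIE-wt.

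Leaving out single libraries gave 0 to 1 genes in spleen, 6 to 6 in the PC and 0 to 1 in culture (Ptpn6, 0.77, adjusted p = 0.0288, without NFKBIE-wt in vitro replicate 2). Between compartments the counts were 4 to 5 (PC and spleen), 0 to 0 (spleen and culture) and 2 to 5 (PC and culture) in NFKBIE-wt, and 5 to 8, 5 to 5 and 7 to 7 in NFKBIE-ko. Transcripts ranged over 0 to 1, 9 to 12 and 0 to 0 in spleen, PC and culture, and interactions over 1 to 2 (Ptpn6 in addition, -0.93, adjusted p = 0.0298, without NFKBIE-ko spleen replicate 2), 0 to 1 and 0 to 2. The uncalled values that changed sign ranged from -0.11 to 0.17 (Siglecg), -0.014 to 0.38 (Fcgr2b) and -0.16 to 0.29 (Ptpn6, negative in 2 cases) in spleen, and from -0.18 to 0.23 (Cd5), -0.45 to 0.021 (Cd72) and -0.10 to 1.05 (Pirb) in culture. The cause was not tested.

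Over all genes, 663 calls in spleen became 1637 with DESeq2, 2120 with all 22 samples, 90 with the block and 133 to 1517 without 1 library. The 4 calls in culture became 230, 276, 0 and 0 to 785. All 22 samples gave 3194 calls in the PC and 4619 between PC and culture in NFKBIE-wt, where the block gave 15, and the block gave 2255 between PC and spleen in NFKBIE-wt and 3165 between spleen and culture in NFKBIE-ko. Called transcripts went from 118 to 1504, 1163 and 0 in spleen and from 4420 to 6958, 1925 and 1779 in the PC with DESeq2, all 22 samples and the block, and from 0 to 282 and 34 in culture with DESeq2 and all 22 samples. Interactions reached 1243, 809 and 1438 with DESeq2, and those of spleen against culture were 24 without a filter, 1 with only 4 groups and 8 with the block, which gave 273 for PC against culture.

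Lair1 had few counts outside the NFKBIE-ko PC, and 4 against 4 samples cannot give an exact p under 0.0286.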
